A study of Mus musculus with 10 samples.

Results

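Peaks of open chromatin were examined around 7 genes of transforming growth factor beta (TGF-beta) signalling in mouse cells on their way from fibroblasts to pluripotency. The genes were the ligands Tgfb1, Tgfb2 and Tgfb3, the receptors Tgfbr1, Tgfbr2 and Tgfbr3, and the signal carrier Smad3. Every peak from 30 kb before to 30 kb after each gene (mm10) was taken from each of the 10 peak lists of the series, which gave 537 of 685776 peaks. Peaks of all lists that overlapped by at least 1 bp were merged into 208851 regions over the genome, and 165 of these regions lay at the 7 loci and are called elements below. An element was counted as open at a stage when both libraries of that stage listed a peak in it.

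The series used ATAC-seq, in which the Tn5 transposase cuts accessible DNA and adapters are added at the cuts, on 50000 cells per library, with 2 libraries at each of 5 stages. All cells had the strain label C57BL/6 x 129. The starting cells were mouse embryonic fibroblasts (MEF) without doxycycline, unsorted, from a mouse with the genotype OKSM Col1a1/M2rtTA ROSA26: a cassette of Oct4, Klf4, Sox2 and c-Myc in Col1a1, switched on by doxycycline through the transactivator in Rosa26. DAY3, DAY6 and DAY9 were cells of the same genotype kept 3, 6 and 9 days in ESC medium with 1 µg/ml doxycycline and 50 µg/ml ascorbic acid; DAY3 cells were unsorted, and DAY6 and DAY9 cells were sorted for the surface marker SSEA1. The end point was the embryonic stem cell (ESC) line V6.5, unsorted, which carries no cassette, received no doxycycline and was grown on irradiated feeder cells. Medium and doxycycline changed together between MEF and DAY3, and sorting began between DAY3 and DAY6, so these cannot be told apart from time. Since bulk cells were measured, fewer cells with an open element and less opening per cell cannot be told apart either.

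TGF-beta ligands are secreted in a latent form and bind, once activated, to the type II receptor, the product of Tgfbr2. That receptor recruits and phosphorylates the type I receptor, the product of Tgfbr1, which phosphorylates Smad2 and Smad3; these enter the nucleus with Smad4 and bind DNA beside other factors. Tgfbr3 encodes betaglycan, a co-receptor that presents ligand, above all the product of Tgfb2, to the other receptors. In fibroblasts the pathway promotes matrix production and the mesenchymal state. Early in reprogramming, fibroblasts pass through a mesenchymal-to-epithelial transition, and inhibitors of the type I receptor are known to speed reprogramming.

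The DNA just before the gene starts is shown first, because each start used here (for Tgfb3 and Tgfbr3, the gene end with the higher coordinate, used as the reference end throughout) lay in an element with a peak in all 10 libraries. The annotated start nearest the 5′ end of the gene was used. Tgfbr1 has another one, inside the gene, just after chr4:47385966-47386215. No element lay there, and its window is left out below. The windows are the 250 bases before the start, from RefSeq (GRCm38.p6), 5′ to 3′ on the strand of the gene; 5 of the 7 genes matched the promoter table, and 4 are printed, the 3 with a match to the letters in capitals and Smad3, which has none. Capitals mark GGGNGTGG on either strand, the core of the sequence bound by Klf4, a factor of the cassette. They stood at chr4:47352972-47353221 (plus strand) for Tgfbr1, chr1:186705990-186706239 (minus strand) for Tgfb2, chr9:116175364-116175613 (minus strand) for Tgfbr2 and chr9:63757995-63758244 (minus strand) for Smad3.
Tgfbr1: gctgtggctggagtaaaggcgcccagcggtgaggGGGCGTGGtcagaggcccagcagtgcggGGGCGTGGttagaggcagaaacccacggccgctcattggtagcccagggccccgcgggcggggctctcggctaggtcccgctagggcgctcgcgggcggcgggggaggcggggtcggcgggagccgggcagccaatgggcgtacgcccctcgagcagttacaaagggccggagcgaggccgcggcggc
Tgfb2: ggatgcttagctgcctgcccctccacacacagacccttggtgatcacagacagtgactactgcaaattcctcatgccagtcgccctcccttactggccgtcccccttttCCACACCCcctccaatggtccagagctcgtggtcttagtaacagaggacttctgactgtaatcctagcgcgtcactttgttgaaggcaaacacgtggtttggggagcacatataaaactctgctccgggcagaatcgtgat
Tgfbr2: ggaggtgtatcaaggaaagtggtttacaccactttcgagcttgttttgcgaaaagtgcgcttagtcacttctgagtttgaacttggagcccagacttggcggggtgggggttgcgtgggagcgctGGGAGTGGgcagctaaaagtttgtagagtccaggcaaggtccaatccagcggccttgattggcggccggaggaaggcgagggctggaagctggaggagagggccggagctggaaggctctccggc
Smad3: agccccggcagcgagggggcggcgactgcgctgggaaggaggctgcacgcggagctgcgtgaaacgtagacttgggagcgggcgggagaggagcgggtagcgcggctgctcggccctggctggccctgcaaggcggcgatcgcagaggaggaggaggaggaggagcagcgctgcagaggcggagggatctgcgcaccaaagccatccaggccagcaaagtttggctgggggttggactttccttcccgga
The letters occurred 2 times in the Tgfbr1 window, 216 and 188 bases before the start, 1 time in that of Tgfb2, 141 bases before it, and 1 time in that of Tgfbr2, 125 bases before it, and occurred in neither the Smad3 nor the Tgfb1 window. Of 32851 promoter windows of the same length in the table, 15.9% held a match. CAGAC, the short sequence bound by Smad3, was searched the same way on both strands; it occurred 2 times in the Tgfb2 window and 1 time in the Tgfbr2 window, and 42.2% of all windows held it. The palindrome GTCTAGAC (0.167% of windows), TGANTCA of AP-1 (6.75%), CATTCC of TEAD factors (12.6%) and ATTTGCAT of Oct factors (1.6%) had no match in the start windows of the 5 genes. Matches were allowed to overlap each other, and a match describes letters only.

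The lists differed in length and depth, which sets what could be seen. They held 45497 to 88980 peaks, fewest at DAY3 and most in ESC. From the deposited fold and p-value of each peak, the commonest background pileup (overlapping fragments) of a library was recovered as 2.327 to 8.322, so that the smallest fold a peak could have at that background ranged from 2.57 in MEF replicate 2 to 3.61 in DAY6 replicate 2. The 2 DAY3 lists and the 2 DAY9 lists differed little more than sampling noise (ratios of the observed to the Poisson variance of 1.332 and 1.42, against 5.56 for MEF, 3.612 for DAY6 and 8.111 for ESC), and each such pair entered the tests as 1 sample. Of 6 fibroblast marker genes, 6 and 5 had a peak within 1 kb of a gene end in the 2 MEF libraries and 2 to 5 did at later stages, with 4 in each ESC library; Postn had one in MEF alone. Of 6 pluripotency markers, 1 and 3 had one in MEF and 6 and 5 in ESC. All 3 epithelial markers had a peak in each DAY6, DAY9 and ESC library, against 1 and 0 in MEF. Endothelial markers had 0 to 2 of 3, and of the 3 blood markers Cd34 and Spi1 had a peak in every library while Ptprc had none in any. The part of other cell types in the results below was not tested.

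Relative to the length of the lists, the 7 loci held most peaks in MEF and at DAY3. There were 77 and 59 peaks in the MEF libraries, 46 and 42 at DAY3, 52 and 46 at DAY6, 56 and 64 at DAY9 and 49 and 46 in ESC. Per 10000 listed peaks, these were 10.3 and 9.18 in MEF, 10.1 and 9.23 at DAY3, 7.98 and 7.80 at DAY6, 7.20 and 8.17 at DAY9 and 5.66 and 5.17 in ESC. Neither ESC library reached the lowest of the others, and the MEF and DAY3 values overlapped. In elements, MEF had 48 open, DAY3 30, DAY6 34, DAY9 50 and ESC 30, while the genome had 46089, 35396, 45281, 64383 and 58800 open regions at these stages. The loci thus held 0.104% of the open regions of MEF, 0.0848% of DAY3, 0.0751% of DAY6, 0.0777% of DAY9 and 0.051% of ESC. With every list cut to its best 45497 peaks by score, 38, 30, 29, 25 and 17 elements were open, against 32146, 35328, 34948, 39705 and 32199 regions in all. In lists of equal length the DAY9 count was thus below that of MEF. Without MEF replicate 2 the MEF count was 73, and without ESC replicate 2 the ESC count was 46.

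**Figure D1:**
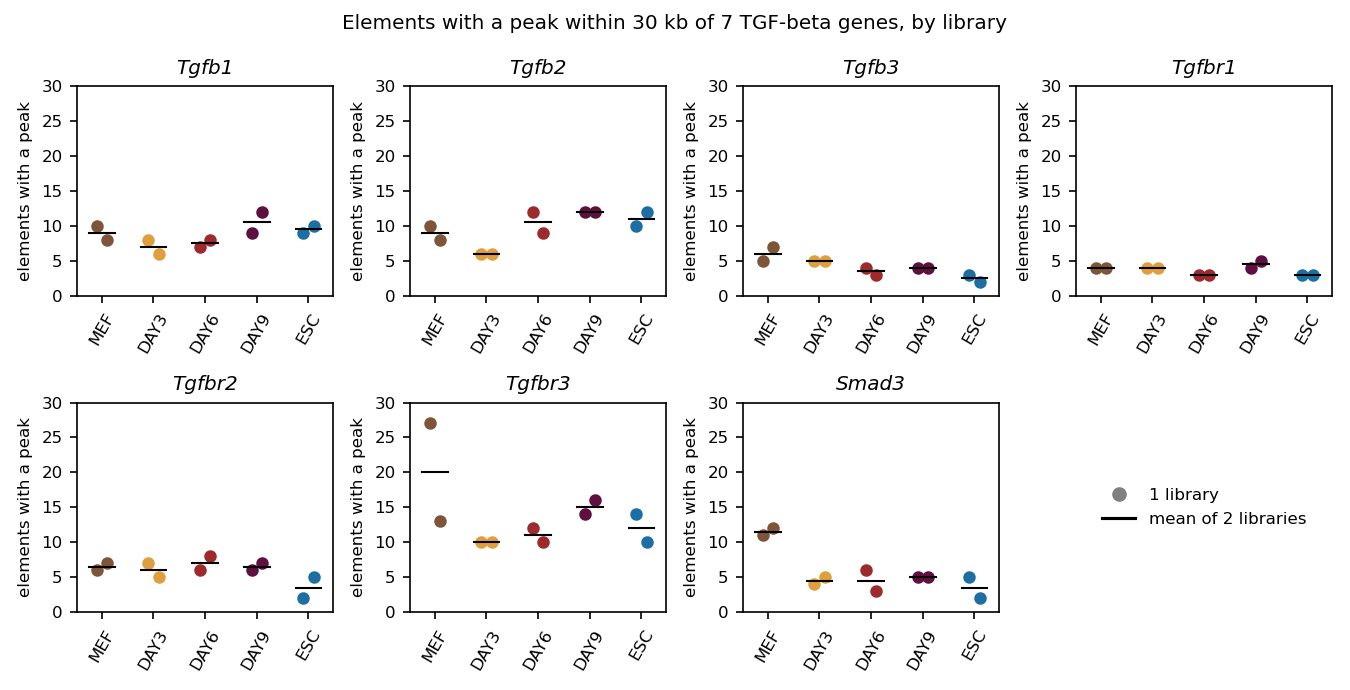
Elements with a peak at each of the 7 loci (vertical axis, number of elements) by stage (horizontal axis); points are the 2 libraries of a stage and short lines mark their means. At Smad3 the MEF libraries list 11 and 12 elements and the later libraries 2 to 6, whereas at Tgfb2 the DAY9 libraries list 12 each and MEF lists 10 and 8.

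The number of peaks in each window was tested for differences between stages in 1 exact permutation test per protein-coding gene over the whole genome, with 8 samples and 18695 genes. No gene was called at an adjusted p of 0.05 (0%), 2611 genes had an unadjusted p below 0.05 (14.0%), and the smallest adjusted p was 0.261. The smallest p that 420 arrangements allow is 0.00238, so a call needed at least 891 genes at that p, or more at larger ones, and 115 had it; that no gene was called therefore says little about any one gene. None of the 7 genes was among the 2611. For Smad3, 89.5% of the variation in peak number lay between stages (exact permutation p = 0.131, adjusted p = 0.376). The others had exact permutation p-values of 0.248 (Tgfb1), 0.333 (Tgfb2), 0.293 (Tgfb3), 0.614 (Tgfbr1), 0.329 (Tgfbr2) and 0.598 (Tgfbr3), with adjusted p-values of 0.468 to 0.728. With 10 libraries counted separately, 6569 genes had an unadjusted p below 0.05, none of them passed the adjustment, and the smallest adjusted p was 0.0911; Tgfb2 (exact permutation p = 0.0857), Tgfb3 (0.0952) and Smad3 (0.0984) were then the nearest of the 7. Under other settings 1 gene at a time had an unadjusted exact permutation p below 0.05: Tgfbr2 in lists of equal length (0.0214), Tgfbr3 with peaks above the median score (0.0476), Tgfb1 in a window of 10 kb (0.0214), Smad3 in a window of 100 kb (0.0405) and Tgfb3 by base pairs under peaks (0.0333). Their adjusted p-values under those settings were 0.324, 0.384, 0.358, 0.232 and 0.268. The counts that follow are descriptions of these libraries.

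DAY3 was the commonest closing stage. An element closed at the first later stage at which neither library listed a peak. Of the 48 MEF elements, 22 closed at DAY3 (45.8%), 3 at DAY6 (6.25%), 1 at DAY9 (2.08%) and 5 at ESC (10.4%), and 17 were listed by 1 or both libraries at every stage (35.4%). Among all 46089 MEF regions the shares were 47.1%, 6.06%, 3.06%, 3.36% and 40.4%, and among MEF regions within 30 kb of a protein-coding gene they were 41.6%, 5.88%, 2.78%, 3.37% and 46.3%. The share at DAY3 was near both backgrounds and is no feature of these genes. Of the closed elements, 4 had a peak again later (8.33% of the 48, against 11.9% of MEF regions). In all, 29 MEF elements had no ESC peak and are called lost (60.4%, against 50.5% of all MEF regions and 44.4% of those near genes), and 16 were open in ESC (33.3%, against 41.7% and 47.6%). Without MEF replicate 2, 50 elements were lost.

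The DAY3 lists were the shortest. In lists of equal length, 14 of 38 MEF elements closed at DAY3, 3 at DAY6, 6 at DAY9 and 2 at ESC. The DAY3 share was 36.8%, against 37.3% of all MEF regions and 31.5% of those near protein-coding genes. The share of MEF elements with a peak was then 56.6% at DAY3 and 51.3% ± 1.86 (SD, n = 2) at DAY6. It was 36.8% at DAY9 and 31.6% ± 3.72 (SD, n = 2) in ESC. Over all MEF regions it was 58.8%, 51.6%, 48.6% and 44.5% from DAY3 to ESC. Over those near protein-coding genes it was 64.7%, 57.9%, 55.1% and 50.7%, above the loci at each stage. Elements without a DAY3 peak were weaker in MEF, with a median fold of 5.01 in replicate 1 and 3.32 in replicate 2, against 8.25 and 5.69 for the 26 with one. Of the 22, 14 had a fold above 3.03, the smallest listable at the higher DAY3 limit, in both MEF libraries, and 7 lay above the 50th percentile of both MEF lists. The part of list length and depth in the missing DAY3 peaks was not tested.

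**Figure D2:**
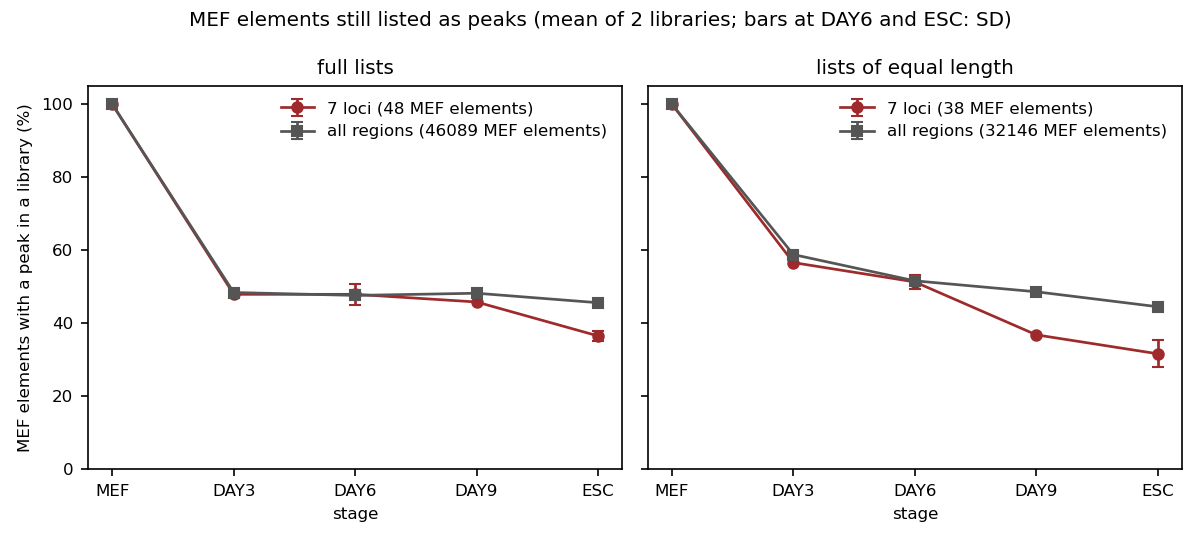
Share of MEF elements (vertical axis, percent) with a peak at each stage (horizontal axis), mean of the 2 libraries, for the 7 loci and for all regions, in the whole lists and in lists of equal length; bars at DAY6 and ESC are SD (n = 2), and MEF is 100% by definition. In lists of equal length the loci stand at 36.8% and the genome at 48.6% at DAY9; in the whole lists they stand at 45.8% and 48.2%.

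The 3 ligand loci closed 5 of 19 MEF elements at DAY3 (26.3%), and the 3 receptor loci closed 10 of 20 (50.0%). Of MEF regions near protein-coding genes 41.6% closed at DAY3, and the difference between the loci was not tested. The loci also differ in neighbours: 4, 2 and 3 MEF elements at Tgfb1, Tgfb2 and Tgfb3 overlapped another protein-coding gene, and 0 did at each receptor. None of the 29 lost elements overlapped an annotated gene start, and 21 lay inside the gene. In contrast, of 15 elements with a peak in all 10 libraries (9.09% of elements, against 7.35% of regions and 9.42% of those near protein-coding genes), 7 lay at a start or reference end of the 7 genes and 4 more at the start of a neighbouring gene. Of all 48 MEF elements 32 lay inside the gene and 11 at a start or reference end. Of all 165 elements 108 and 14 did. The same shares for lost regions over the genome were not counted, so whether these positions are particular to the 7 genes cannot be told. Lost elements had a median width of 715 bp and those in all 10 libraries one of 1166 bp. An element is the union of its peaks, so its width can only grow with the number of libraries that list it, and these widths are not comparable. Exons and introns were not told apart here.

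**Figure D3:**
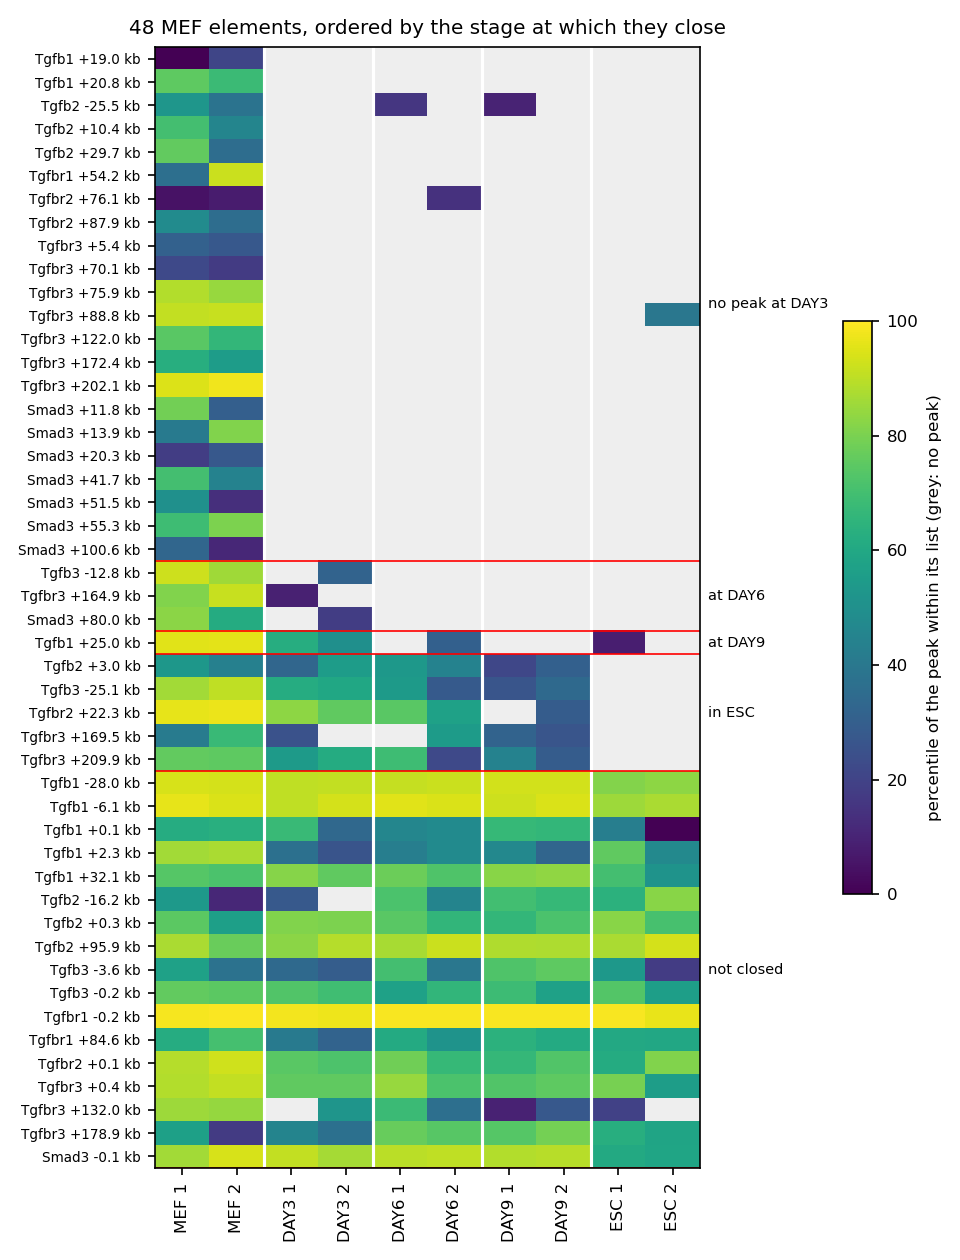
The 48 MEF elements (rows, named by gene and distance in kb from the gene start or reference end, in blocks by the stage at which they closed) across the 10 libraries (columns); colour is the percentile of the peak within its own list by −log10 p, and grey cells have no peak. The rows of the 7 starts and reference ends are filled throughout, and 7 of the 9 Smad3 rows are filled in the MEF columns alone.

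Among the ligands, Tgfb1, the commonest isoform in most tissues (chr7:25687002-25705077), listed 10 and 8 elements in MEF, 8 and 6 at DAY3, 7 and 8 at DAY6, 9 and 12 at DAY9 and 9 and 10 in ESC, which overlapped between stages. Its window holds 6 other protein-coding genes (Bckdha, Exosc5, Tmem91, B9d2, Ccdc97 and Hnrnpul1), so its elements cannot be assigned to it alone. The same holds elsewhere: 10 of the 12 Tgfb3 elements, 8 of the 17 at Tgfb1, 4 of the 28 at Tgfb2, 2 of the 22 at Tgfbr2 and 2 of the 24 at Smad3 overlapped another protein-coding gene (Ift43 or Ttll5 at Tgfb3, Rrp15 at Tgfb2, Gadl1 at Tgfbr2, Aagab at Smad3), and none did at Tgfbr1 or Tgfbr3. The start element (chr7:25686582-25687555) was modest, with folds over background of 3.97 and 3.34 in MEF, 5.09 and 3.05 at DAY3, 4.41 and 4.53 at DAY6, 5.58 and 5.38 at DAY9 and 4.25 and 2.75 in ESC. In ESC replicate 2 it stood at the bottom of its list, at percentile 0.0208. The strongest element in all 10 libraries was the start of B9d2, a cilium gene, 6.1 kb before that of Tgfb1 (chr7:25680469-25681329), with folds of 8.29 to 15.0. All folds are those of the authors' peak caller and are set by depth and background too, so they describe a library and do not measure a change.

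Of the 8 MEF elements at Tgfb1, 2 closed at DAY3, 2 were lost and 5 were open in ESC. The stronger lost one lay 20.8 kb after the start, beyond the gene (chr7:25707473-25708092), with folds of 4.50 and 3.44 in MEF and no peak elsewhere. An element 25.0 kb after the start closed at DAY9 and had a peak again in ESC replicate 1. Of 2 gained elements, those open in ESC with no MEF peak, the stronger lay 17.5 kb before the start, in Tmem91 (chr7:25668937-25670060), with folds of 3.91 in DAY6 replicate 2, 3.70 in DAY9 replicate 2 and 8.53 and 4.11 in ESC.

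Tgfb2 (chr1:186622787-186709697), the ligand most dependent on betaglycan, listed 10 and 8 elements in MEF, 6 and 6 at DAY3, 12 and 9 at DAY6, 12 and 12 at DAY9 and 10 and 12 in ESC. DAY3 was lowest and did not overlap the other stages. The same held over all regions, with 44264 and 44067 listed at DAY3 and at least 57062 in every other library. In lists of equal length 6, 4, 7, 4 and 5 elements were open from MEF to ESC at Tgfb2. Its start element (chr1:186705030-186706258) had folds of 5.86 and 3.71 in MEF, 6.77 and 6.42 at DAY3, 6.15 and 5.47 at DAY6, 5.53 and 6.15 at DAY9 and 8.71 and 4.94 in ESC. The strongest element in all 10 libraries lay 95.9 kb after the start, beyond the gene (chr1:186609567-186610622), with folds of 5.79 to 14.2. Of 7 MEF elements, 3 closed at DAY3 and 4 were lost (7 without MEF replicate 2); the strongest lost one, 10.4 kb into the gene (chr1:186695223-186695976), had folds of 8.52 and 3.54 in MEF alone.

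Tgfb2 had the most gained elements of the 7 loci, 5 of 12. They were 5 of its 8 elements open in ESC, while 56.6% of all ESC regions and 49.7% of those near protein-coding genes were gained. The number is thus read as no feature of Tgfb2, and in lists of equal length 2 were left. The strongest gained element lay 23.0 kb before the start, in Rrp15 (chr1:186728733-186729252). It had folds of 3.61 and 3.26 at DAY9 and 11.7 and 3.88 in ESC. Both ESC libraries listed that peak, far apart in fold.

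Tgfb3 (chr12:86056743-86079041), the ligand known for its part in palate fusion, listed 5 and 7 elements in MEF, 5 and 5 at DAY3, 4 and 3 at DAY6, 4 and 4 at DAY9 and 3 and 2 in ESC. The ESC and MEF libraries did not overlap, but the share of genes with such a split over the genome was not counted. Of its 4 MEF elements none closed at DAY3, 1 closed at DAY6 and 1 at ESC, and 2 never closed. The element that closed at DAY6 lay 12.8 kb outside the gene, in Ift43 (chr12:86091461-86092267), and was strong in MEF, with folds of 13.2 and 6.54, was listed in DAY3 replicate 2 alone of that stage, with a fold of 3.83, and had no peak after that. The reference-end element (chr12:86078650-86079836) had folds of 5.69 and 4.46 in MEF and 8.03 and 4.89 in ESC. No element was gained; without MEF replicate 1, 5 elements counted as lost in place of 2.

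Among the receptors, Tgfbr1 (chr4:47353222-47414926), the kinase that passes the signal on, had few elements: 4 in each MEF and DAY3 library, 3 in each DAY6 library, 4 and 5 at DAY9 and 3 in each ESC library. Its start (chr4:47352176-47353880) was the strongest of the 7 starts, with folds of 14.1 and 13.6 in MEF, 11.8 and 11.6 at DAY3, 15.7 and 17.1 at DAY6, 16 and 15.6 at DAY9 and 16.7 and 11 in ESC, at a mean percentile of 98.6. Of 3 MEF elements 1 closed at DAY3 and did not return; it lay 54.2 kb into the gene (chr4:47407076-47407790) and had folds of 4.76 and 8.67 in MEF. Without MEF replicate 1, and likewise without MEF replicate 2, 2 elements were lost. A gained element 1.6 kb before the start (chr4:47351480-47351824), beside the start element, was weak, with folds of 2.35 and 2.26 in ESC.

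Tgfbr2 (chr9:116087695-116175363), which binds the ligand, listed 6 and 7 elements in MEF, 7 and 5 at DAY3, 6 and 8 at DAY6, 6 and 7 at DAY9 and 2 and 5 in ESC. The start element (chr9:116174240-116176267), which also covers the start of Gm40582, had folds of 10.1 and 8.45 in MEF, 6.62 and 6.67 at DAY3, 7.45 and 6.21 at DAY6, 5.79 and 7.23 at DAY9 and 6.69 and 7.46 in ESC. Of 4 MEF elements 3 were lost (6 without MEF replicate 1), 2 of them closed at DAY3, and none was gained. The strongest, 22.3 kb into the gene (chr9:116152651-116153433), was listed with folds of 14.8 and 10.5 in MEF, 10.3 and 8.28 at DAY3, 9.73 and 6.91 at DAY6, 3.46 in DAY9 replicate 2 alone and no peak in ESC. Its percentile within each list was 96.3 and 97.2 in MEF, 83.2 and 75.4 at DAY3, 74.4 and 57.1 at DAY6 and 29.0 in DAY9 replicate 2. The lists differ in length and depth, so these places within lists and the folds show no change in height; what can be counted is that 1 library lacked the peak at DAY9 and both did in ESC.

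Tgfbr3 (chr5:107106567-107289629), the betaglycan gene and the longest of the 7, had 51 elements. The MEF libraries differed most here, with 27 and 13, followed by 10 and 10 at DAY3, 12 and 10 at DAY6, 14 and 16 at DAY9 and 14 and 10 in ESC. Of 13 elements open in MEF, 7 closed at DAY3 and 9 were lost; without MEF replicate 2, 22 were lost. The strongest lost element lay beyond the far end of the gene, 202.1 kb from its reference end (chr5:107087111-107087953), with folds of 13.4 and 11.6 in MEF (pileups of 128 and 152) and no peak in any other library. Its percentile, 94.8 and 98.0 in MEF, was the highest mean among lost elements without a DAY3 peak. The reference-end element (chr5:107288451-107289968) had folds of 11.2 and 8.54 in MEF, 7.32 and 7.63 at DAY3, 11.5 and 8.41 at DAY6, 7.66 and 8.21 at DAY9 and 8.57 and 4.57 in ESC. Of 3 gained elements the strongest, 69.5 kb into the gene (chr5:107219847-107220352), had folds of 3.96 and 3.82 at DAY9 and 6.25 and 5.57 in ESC.

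Smad3 (chr9:63646766-63757994), which carries the signal to the genome, lost the largest share of its MEF elements among the 7 loci in the whole lists. It listed 11 and 12 elements in MEF, 4 and 5 at DAY3, 6 and 3 at DAY6, 5 and 5 at DAY9 and 5 and 2 in ESC. Both MEF libraries thus stood above all later ones, but the share of genes with such a split over the genome was not counted. Of its 9 MEF elements 7 closed at DAY3 and 1 at DAY6, 80.0 kb into the gene, and 8 had no ESC peak. The one left was the start. The ranking depended on the lists: in lists of equal length Tgfbr3 lost 9 of 10 MEF elements and Smad3 5 of 6. With peaks above the median score Tgfbr3 lost 8 and Smad3 2. The strongest lost element, 55.3 kb into the gene (chr9:63702284-63703088), had folds of 6.20 and 5.39 in MEF (pileups of 47 and 67) and no peak elsewhere. The start element (chr9:63757482-63758647) had folds of 9.25 and 8.68 in MEF, 8.20 and 7.42 at DAY3, 10.2 and 10.9 at DAY6, 9.32 and 10.3 at DAY9 and 5.70 and 4.91 in ESC. The percentile within each list was 60.9 and 58.9 in ESC and 86.0 to 94.0 in the other 8 libraries, again in lists of different length. Its 1 gained element, 15.9 kb into the gene (chr9:63741698-63742393), had folds of 4.49 in DAY6 replicate 1, 8.06 and 6.69 at DAY9 and 6.93 and 3.87 in ESC.

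**Figure D4:**
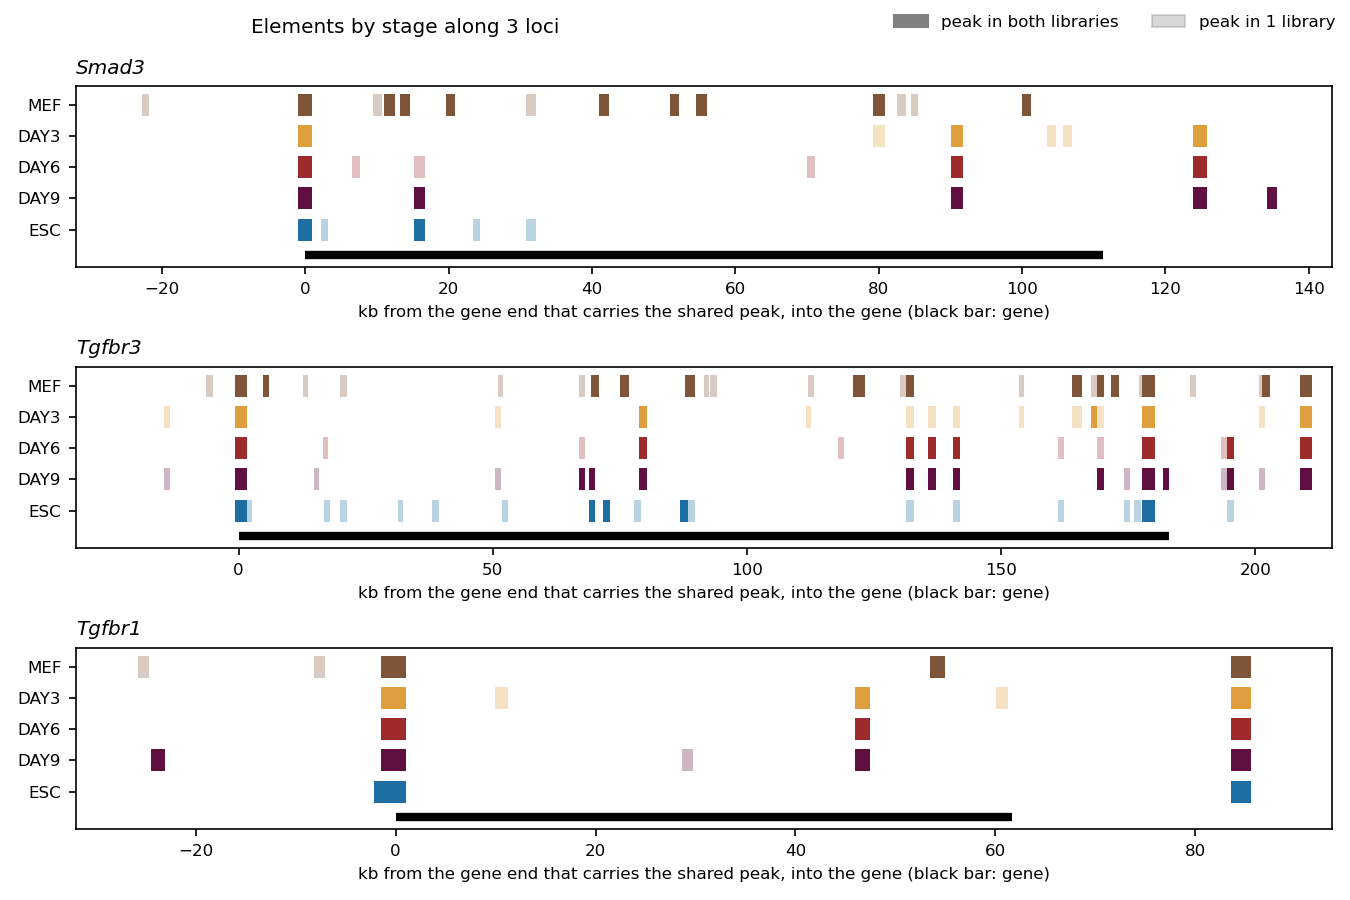
Elements of Smad3, Tgfbr3 and Tgfbr1 along the locus (horizontal axis, distance in kb from the gene start or reference end, positive into the gene; the black bar is the gene), with 1 row per stage; dark boxes have a peak in both libraries and pale boxes in 1, and boxes are widened by 0.4 kb on each side to be visible. The MEF row of Smad3 carries 9 dark boxes and its ESC row 2, and in the ESC row of Tgfbr1 the gained element merges with the start.

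Apart from MEF and ESC elements, 16 elements were open at DAY3, DAY6 or DAY9 and had no peak in MEF or ESC (9.7% of elements, against 9.61% of regions and 9.84% of those near protein-coding genes, so their number is no feature of these genes). Of these, 9 were at the receptor loci, 4 at ligand loci and 3 at Smad3. They were often open early: 9 of 16 were first open at DAY3 (56.2%, against 34.9% of such regions in the genome), and 7 of 16 were open at all 3 stages (43.8%, against 17.5%). Neither share was tested. The DAY3 and DAY9 pairs were counted as 1 sample each, and without DAY6 replicate 2 there were 26 such elements. At Tgfb1 there was none.

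The strongest of these elements at each gene are given, chosen after their values were seen. At Tgfbr1 it lay 46.7 kb into the gene (chr4:47399520-47400269), with folds of 11.6 and 10.8 at DAY3, 9.88 and 11.7 at DAY6 and 10.1 and 7.29 at DAY9. Its percentiles at DAY3 were 88.0 and 87.0. At Tgfbr3 it lay 79.6 kb into the gene (chr5:107209666-107210436), with folds of 3.97 and 4.15 at DAY3, 9.33 and 12.5 at DAY6 and 12.8 and 13.1 at DAY9, and pileups of 24 and 25, 46 and 62, and 150 and 161. Here the deposited folds were lowest in both DAY3 libraries; the percentiles within the lists were 35.3 and 38.7 at DAY3 and 86.8 and 87.9 at DAY9.

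At Smad3 the strongest such element lay beyond the far end of the gene, 124.8 kb from the start, in Aagab (chr9:63632581-63633808), with folds of 5.39 and 5.29 at DAY3, 10.4 and 8.02 at DAY6 and 9.05 and 7.54 at DAY9. At Tgfbr2 it lay 30.1 kb into the gene (chr9:116144593-116145868), with folds of 3.73 and 3.88, 5.78 and 3.70, and 4.93 and 4.69 at these stages. At Tgfb2 it lay 25.8 kb into the gene (chr1:186679944-186680401), with folds of 3.01 and 3.67, 7.41 and 7.21, and 4.32 and 3.82. Tgfb3 had one 9.2 kb outside the gene, in Ift43 (chr12:86088065-86088405), with folds of 3.65 and 3.51 at DAY3 alone. At each gene but Tgfb1 and Tgfb3 the element given was thus listed in all 6 libraries of DAY3, DAY6 and DAY9. Its absence from MEF and ESC was set by the rule that chose it. The mean percentile used for the choice fell with each library without a peak, so listing in all 6 libraries was favoured by the choice too. Over the genome, 3520 of 20067 regions open between MEF and ESC alone were open at all 3 stages (17.5%). Those regions were not ranked by strength, so that share is no measure for the elements given here.

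**Figure D5:**
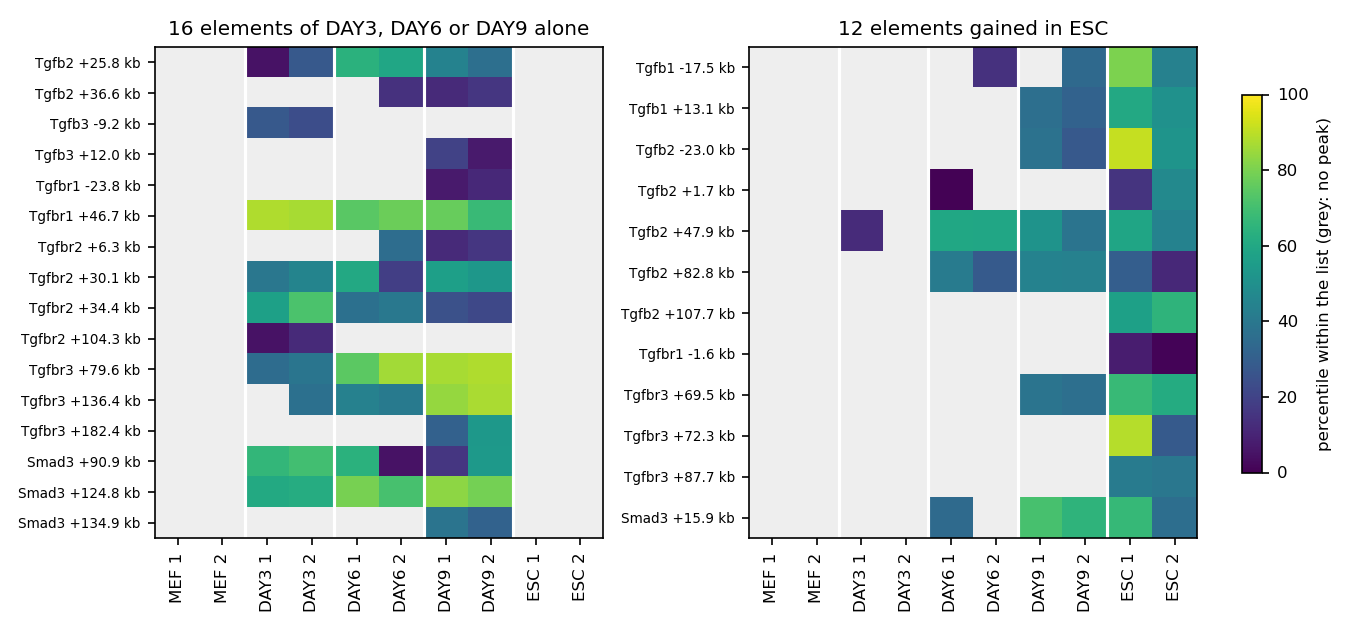
The 16 elements open between MEF and ESC alone and the 12 gained elements (rows, named by gene and distance in kb; left and right panel) across the 10 libraries (columns); colour is the percentile of the peak within its own list, and grey cells have no peak. On the left 7 rows are filled in all 6 libraries of DAY3, DAY6 and DAY9; on the right no row is filled in both DAY3 libraries.

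Gained elements made up 12 of the 30 elements open in ESC (40%, against 56.6% of ESC regions and 49.7% of those near protein-coding genes). They were 5 at Tgfb2, 3 at Tgfbr3, 2 at Tgfb1 and 1 each at Tgfbr1 and Smad3. None was open at DAY3, against 8.69% of gained regions in the genome. At DAY6 2 were first open (16.7%, against 14.7%), at DAY9 4 (33.3%, against 15.7%) and in ESC 6 (50.0%, against 60.9%). With 12 elements these shares were not tested. The 2 open from DAY6 were both at Tgfb2. In lists of equal length 4 gained elements were left, and 25 and 24 were counted without ESC replicate 1 and without ESC replicate 2.

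For the rest of the pathway, 28 genes grouped by role were counted the same way. Together they had 164 MEF elements, of which 64 closed at DAY3 (39.0%, against 41.6% of MEF regions near protein-coding genes), 83 were lost (50.6%, against 50.5% of all MEF regions and 44.4% of those near genes) and 66 were open in ESC (40.2%, against 41.7% and 47.6%). They gained 70 elements, 47.3% of those open in ESC, against 56.6% and 49.7%. These shares were near the background. No gene of the 28 passed the adjusted test, and 5 had an unadjusted exact permutation p below 0.05 (17.9%, near the 14.0% of all genes tested); 14 genes had more lost than gained elements and 10 had more gained. The 6 target genes, those transcribed in answer to TGF-beta in many cells, lost 20 of 32 MEF elements (62.5%) and gained 8. The 8 genes of latency and activation lost 35 of 59 (59.3%) and gained 29, and the 8 inhibitors lost 24 of 50 (48%) and gained 22. The 4 other signal carriers lost 3 of 14 (21.4%) and gained 9, and the 2 other receptors lost 1 of 9 (11.1%) and gained 2. None of these shares was tested against the 50.5% of all MEF regions.

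The genes with most lost elements were Ltbp1 and Tgfbi. Tgfbi, a target that encodes a matrix protein, had 9 MEF elements, of which 5 closed at DAY3 and 8 were lost, and gained none (exact permutation p = 0.0357, adjusted p = 0.317). Ltbp1, whose product tethers latent ligand to the matrix, lost 14 of 18 and gained 12, the most of the 28 (exact permutation p = 0.712, adjusted p = 0.798). Next in gained elements was Itgav, the integrin subunit that takes part in releasing the ligand, with 8 gained and 3 lost (exact permutation p = 0.0143, adjusted p = 0.292). The 28 genes were grouped with earlier results of these data known, and their counts are no independent evidence.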

How the data were processed

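The 10 libraries (2 each of MEF, DAY3, DAY6, DAY9 and ESC) were grouped by their titles. The authors deposited 1 peak list per library, with 10 columns and no header, laid out as narrowPeak. The submitters' processing notes name mm10, Bowtie2 2.3.2, MACS2 2.1.1 and deepTools 2.3.6; their roles, filters, handling of duplicates and shift of cut sites are not given in the sources used here. The deposited score, the fold (a ratio over background) and −log10 of the p-value and q-value are the authors' own, and every listed peak had a −log10 p of at least 5. They describe or rank peaks within a list.

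Peaks of the 10 lists were merged into regions (overlap of at least 1 bp), and regions within 30 kb of a gene in the RefSeq table (GRCm38.p6) were taken. The members and lists were chosen with earlier results of these data known. Named elements were those at the gene start or reference end and, by mean percentile, the strongest lost, gained and kept at each gene, with the 2 other pathway genes that lost most and the 2 that gained most. The summit pileup n and background e were recovered from the fold, (n + 1)/(e + 1), and the Poisson p. The replicate variance was compared with the Poisson variance at pileups from 100 to 200. The gene test took genes with at least 10 peaks over the lists, permuted samples over stages exactly for the share of the variation in peak number between stages, and adjusted by Benjamini-Hochberg; it was tested on simulated data. It used Python 3.11.15, numpy 2.4.6, pandas 2.3.3 and scipy 1.17.1. The labels number the replicates, but same-numbered libraries did not deviate together (correlations of -0.0095 to 0.0221 over 10 pairs of stages). All libraries carry the same batch label. Read totals are unknown, so precision was judged from the background pileups. Alternatives were list length, window, overlap, the rule for an open stage, each library left out and a replicate block. Sequence motifs in distal elements were not analysed here.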

Additional observations from a re-analysis of the deposited data

How the results depend on the processing

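Counts of elements, and in part their order over the stages, depend on the rules. With lists of equal length, 38 elements were open in MEF, 30 at DAY3, 25 at DAY9 and 17 in ESC, so that DAY9 went from above MEF and DAY3 to below both, and 4 were gained. With peaks above the median score of each list, 28, 17, 18, 23 and 17 elements were open from MEF to ESC, 16 were lost, 4 gained and 9 open between MEF and ESC alone. With a window of 100 kb, 87, 55, 59, 81 and 47 were open and 54 lost; DAY9 was below MEF in both of these settings too. When peaks had to cover 50% of a region, 20.5% of MEF elements were open in ESC. When 1 library was enough to open a stage, 84 elements were open in MEF, 55 at DAY3, 60 at DAY6 and 60 in ESC, 64.3% of MEF elements had no DAY3 peak, 61 were lost, 37 gained and 44 open between MEF and ESC alone. With a replicate block (calls made within each replicate number and averaged), 62.7% had no DAY3 peak, 46.5 were lost, 25.5 gained and 37 open between MEF and ESC alone; the block gave 0 called genes, and the numbers do not pair the libraries. Without 1 library at a time, 48 to 73 elements were open in MEF, 30 to 44 at DAY3, 34 to 50 at DAY6, 50 to 61 at DAY9 and 30 to 46 in ESC, 45.8% to 58.9% of MEF elements had no DAY3 peak, 24.7% to 37.5% were open in ESC, 29 to 50 were lost, 12 to 25 gained and 16 to 26 open between MEF and ESC alone. These counts can only grow by construction where a stage rests on 1 library. The gene test called 0 genes under each alternative, with 1367 to 6569 genes at an unadjusted p below 0.05; with so few arrangements this says nothing about stability. Regions around summits were not run, since the summit column is empty; windows around peak centres, chosen after seeing the data, were used in their place.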

Other observations

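From 30 to 100 kb on either side of the 7 genes there were 111 more elements. Of these, MEF had 39 open, DAY3 25, DAY6 25, DAY9 31 and ESC 17. At DAY3, 17 of the 39 MEF elements closed (43.6%, near the 47.1% of all MEF regions), 25 had no ESC peak (64.1%, against 50.5%; not tested), and 6 elements were gained. Tgfbr1, with 3 MEF elements inside the 30 kb window, had 8 in these flanks, of which 6 were lost. Tgfb3 had 6 MEF elements in its flanks, of which 5 were lost, and Tgfb2 had 7, of which 5 were lost. At Tgfb1 1 of 6 was lost, at Smad3 4 of 6, and at Tgfbr2 and Tgfbr3 2 of 3 each. The flanks reach other genes, and to which gene an element belongs was not tested.

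Of the 165 elements at the 7 loci, 66 had a peak in 1 library alone (40%, against 37.9% of all regions), and these enter no count of open elements.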
